A study of Homo sapiens with 2 samples.

Results

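The genes described here encode the machinery that brings proteins into mitochondria, folds them there and degrades them. They were chosen by symbol: every TIMM or TOMM gene whose symbol goes on with a digit, and 14 named chaperones, cochaperones and proteases. The rule found 35 of the 22595 gene symbols in the tables, and 34 of the 35 were measured, meaning at least 20 counts over both libraries, as were 14240 genes in all. The cells were 786-O, a long-established line from a human renal carcinoma of the clear cell type that lacks functional VHL. RNA-seq libraries came from cells in medium with 0 mM glucose (1 library) and from cells in medium with 25 mM glucose (1 library). The tables held 31345853 counts without glucose and 27317598 with glucose. The labels give no genotype change, agent or time, and each sample carries a further short code, LucG without glucose and LucF with glucose, whose meaning is not given, so a difference that the code may mark cannot be told apart from glucose. There were no replicates, so no difference below has a replicate check, no p-value is given, and every difference is one between these libraries. In bulk RNA, fewer cells that express a gene and less of its RNA per cell cannot be told apart.

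Most mitochondrial proteins are made in the cytosol. The outer membrane translocase (TOM) takes them in, after which the inner membrane presequence translocase (TIM23) with its HSP70 motor, or the carrier translocase (TIM22) with the small TIM chaperones of the intermembrane space, passes them on. Inside, HSP70, HSP60 with HSP10 and the HSP90 homolog TRAP1 fold proteins, and the ATP-dependent proteases LONP1, ClpXP and the AAA proteases of the inner membrane remove damaged ones. Several of these genes are known to be induced when mitochondrial protein folding is disturbed, and LONP1 also by the ER stress kinase PERK and the transcription factor ATF4.

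Differences are given as the ratio of CPM without glucose to CPM with glucose, where CPM is counts per 1000000 of the TMM effective library size. Each ratio has an exact 95% interval that covers counting error alone and treats every count as independent. PCR copies of a molecule are not independent, so the intervals can be too narrow even for counting error. Genes whose whole interval exceeded 2-fold were called higher, and those whose whole interval was under 0.5-fold were called lower.

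The library without glucose held more transcripts of the mitochondrial HSP70 gene HSPA9 and, by less than 2-fold, of most other members. HSPA9 was the only member past the 2-fold bound, and the protease gene LONP1 came next. Of the 34 measured members 1 was called higher and 0 lower, against 3.75% higher and 6.20% lower among all 14240 measured genes. The share called higher, 1 of 34, was near that background. Both directions together, 1 of 34 members passed the bound against 1417 of 14240 measured genes, so the members' share was the lower one. With so few members this difference was not tested. Smaller differences leaned to one side: 25 members had an interval wholly above 1-fold and 6 wholly below, against 37.4% above and 36.5% below among all measured genes. Between these bounds, 2 members lay wholly above 1.5-fold and 0 below, against 10.2% and 12.6% of all measured genes. The median log2 ratio of the members was 0.30 with quartiles at 0.11 and 0.47, beside 0.01 with quartiles at -0.45 and 0.42 over all measured genes. The members are short, with a median length of 1926.5 bases against 2963 for all measured genes. Of the 4634 measured genes between 1149 and 2641 bases, the quartiles of the members' lengths, 1938 lay wholly above 1-fold and 1308 wholly below. Their median log2 ratio was 0.12, and the part of length in the members' ratios was not tested. Summed over the measured members, the level was 3658 CPM without glucose and 2659 CPM with glucose, a 1.38-fold difference. HSPA9 alone took 24.9% of the members' counts without glucose (95% Wilson interval 24.6 to 25.1%) and 16.2% with glucose (15.9 to 16.5%).

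**Figure D1:**
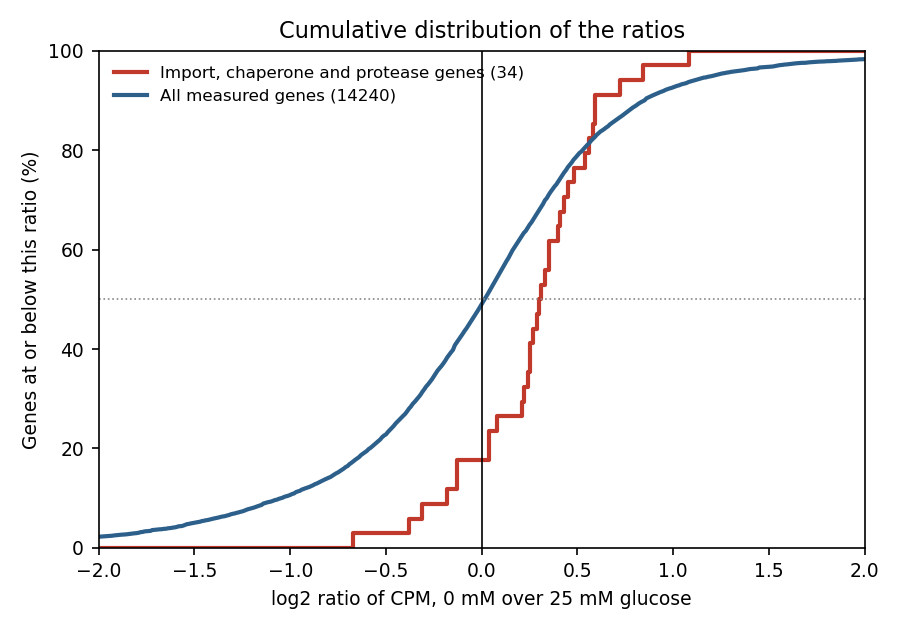
Share of genes (y axis, %) with a log2 ratio of CPM, 0 mM over 25 mM glucose, at or below the value on the x axis, for the 34 measured members and all 14240 measured genes. The members' curve crosses 50% at 0.30 and that of all genes at 0.01, and the members lie between -0.68 and 1.08.

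HSPA9 encodes mortalin, the HSP70 of the mitochondrial matrix, which pulls proteins in through TIM23 and also folds them. In hg19 its gene model lies on the minus strand of chromosome 5 from 137890571 to 137911318. It had 27961 counts (909 CPM) without glucose and 12006 counts (431 CPM) with glucose. That was a 2.11-fold difference (interval 2.07 to 2.16), rank 912 from the top of the 14240 measured genes. When the libraries were scaled by their total counts, it was 2.03-fold (1.99 to 2.07) and no longer past the bound. All 17 exons of the model had more than 10 reads in both libraries.

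LONP1, the AAA+ protease that degrades oxidized and misfolded matrix proteins, lies on the minus strand of chromosome 19 from 5691845 to 5720176. It had 6193 counts (201 CPM) without glucose and 3137 counts (113 CPM) with glucose, a 1.79-fold difference (interval 1.71 to 1.87). It and HSPA9 were the members whose whole interval lay beyond 1.5-fold with TMM scaling, and leaving both out gave a median log2 ratio of 0.29 over the other 32.

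Transcripts of the HSP60 chaperonin and of its HSP10 lid differed in direction, although their genes sit head to head on chromosome 2. HSPD1, which encodes HSP60, the barrel in which matrix proteins fold, had 12305 counts (400.2 CPM) without glucose and 7994 counts (287 CPM) with glucose, a log2 ratio of 0.48 (0.44 to 0.52). HSPE1, which encodes HSP10, had 560 counts (18.2 CPM) without glucose and 632 counts (22.7 CPM) with glucose, a log2 ratio of -0.32 (-0.48 to -0.15). The ratio of HSPD1 was 1.74 times that of HSPE1 (exact interval 1.54 to 1.96), a comparison in which the scaling of the libraries cancels. Per gene length HSPE1 was also far below its partner, at 19.01 RPKM against 164 RPKM for HSPD1 without glucose and 24.6 against 122 RPKM with glucose. Both are uncertain as single genes. RefSeq names 28 pseudogenes of HSPE1 and 22 of HSPD1, the treatment of reads with several matches is not described by the labels, and their hg19 models overlap by 278 bases on opposite strands. The plus-strand model of HSPE1 runs from 198364721 to 198368187 and the minus-strand model of HSPD1 from 198351308 to 198364998.

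Of the members best known as targets of the mitochondrial unfolded protein response, HSPE1 alone had an interval below 1-fold. Those of HSPA9, LONP1 and HSPD1 lay above it. HSPD1 and HSPE1 are uncertain as single genes, for the reasons given above. The log2 ratios were 1.08 for HSPA9, 0.84 for LONP1, 0.48 for HSPD1, 0.08 for CLPP and -0.32 for HSPE1. CLPP, the peptidase of ClpXP, had 27.9 CPM without glucose and 26.5 CPM with glucose, and its interval, 0.956 to 1.17-fold, spanned 1-fold. TRAP1, the mitochondrial HSP90, had 115 CPM without glucose and 99.2 CPM with glucose (log2 ratio 0.22).

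A short sequence is shown here because the promoters of HSPA9, LONP1, HSPD1, HSPE1 and TOMM20, described above or next, all hold it. Windows of 250 bases before the RefSeq starts (GRCh38.p14) were found for 30 of the 35 members and searched on both strands. The E-box CACGTG, which reads the same on both strands, was present in 5 of 30 (16.7%), against 7.73% of the 27305 genes with a window. This background, used for every motif here, is not limited to genes measured in these cells. HSPD1 and HSPE1, both counted among the 5, hold 1 match in common. It lies between the HSPE1 start and the nearer of the HSPD1 starts in RefSeq, which is 104 bases away, while the other HSPD1 start is 538 bases away. The sites below are 30 bases each, 5′ to 3′ on the strand of the named gene, with the E-box in capitals. They lie at chr5:138575403-138575432 on the minus strand for HSPA9, chr19:5720178-5720207 on the minus strand for LONP1, chr1:235128988-235129017 on the minus strand for TOMM20 and chr2:197500345-197500374 on the plus strand for HSPE1. LONP1 holds a further E-box in the same window, at chr19:5720341-5720370, which is not printed.
HSPA9: cgcccctcacccCACGTGgttggaggtttc
LONP1: cgcgccgggcgtCACGTGcgtttcgcggcg
TOMM20: aaagtccgtggtCACGTGcaaattcccgac
HSPE1: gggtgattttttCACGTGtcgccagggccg
A match is a description of the letters and not evidence of a bound factor, and the log2 ratios of these genes ran from -0.32 for HSPE1 to 1.08 for HSPA9.

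Of the other motifs searched, the ETS motif CCGGAAG was the most common, in 9 of 30 member promoters (30%) against 10.2% of all. The log2 ratios of these 9 ran from -0.18 for TOMM70A to 0.84 for LONP1. The NRF1 core GCATGCGC stood in 3 (10%) against 3.22%, namely LONP1 (0.84), TIMM9 (0.71) and TOMM7 (0.57). A link between motif and ratio was not tested. The NRF1 sites are shown with the core in capitals, at chr19:5720459-5720488 for LONP1, chr14:58427641-58427670 for TIMM9 and chr7:22822954-22822983 for TOMM7, all on the minus strand. LONP1 held further overlapping and separate matches in the window of its upstream start.
LONP1: ctagagtctgaGCATGCGCatgttgtccgc
TIMM9: agacacaacacGCATGCGCgccaagaaact
TOMM7: atcgcaaccacGCATGCGCctactactgcc
The element CARE, TGATGCAA, which binds ATF4 with C/EBP partners, was found in TIMM22 alone (3.33% against 0.967%), and the heat shock core GAANNTTC in HSPD1 alone, before its farther start (3.33% against 7.05%). The ER stress elements ERSE (CCAAT, any 9 bases, CCACG) and ERSE-II (ATTGG, any 1 base, CCACG) were in 0 of 30 windows, and in 0.0916% and 0.0659% of all. Nothing about the factors that bind them follows from this.

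In the outer membrane translocase, the 8 measured genes split in direction, with 4 intervals above 1-fold, 3 below and 1 spanning it. Among all measured genes 37.4% lay above and 36.5% below. The median log2 ratio was 0.17. TOMM20, the receptor that binds presequences, had 5820 counts (189 CPM) without glucose and 3585 counts (129 CPM) with glucose (log2 ratio 0.56, interval 0.50 to 0.62). TOMM22, the central receptor and organiser of the complex, had 115 CPM without glucose and 93.7 CPM with glucose (0.30). TOMM70A, the receptor for carrier proteins that binds cytosolic HSP70 and HSP90, stood on the other side with 159 CPM without glucose and 181 CPM with glucose (-0.18, interval -0.24 to -0.13). The receptors TOMM20 and TOMM70A thus had intervals on opposite sides of 1-fold.

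The pore and its small partners varied as much. TOMM40, the channel itself, had 29.8 CPM without glucose and 29.0 CPM with glucose (0.04), and its sign turned to -0.02 with scaling by total counts. Its paralog TOMM40L had 9.76 CPM without glucose and 12.8 CPM with glucose (-0.39), and the ratio of TOMM40 was 1.34 times that of TOMM40L (1.12 to 1.61). Only 3 of the 10 exons of TOMM40L had more than 10 reads without glucose, against 6 with glucose. Among the small subunits that steady the pore, TOMM7 had 88.9 CPM without glucose and 59.7 CPM with glucose (0.57) and TOMM6 had 62.1 and 46.96 CPM in the same order (0.40). TOMM5, the third of these, had 53.3 CPM without glucose and 58.7 CPM with glucose (-0.14, interval -0.24 to -0.04). TOMM20L, a paralog of TOMM20, was not measured by the count minimum. It had 1 count without glucose, under the floor of 3 counts (0.0976 CPM), and 5 counts with glucose, where that floor is 0.108 CPM. The ratio was 0.181 with an interval of 0.00383 to 1.62, which spanned 1-fold. TOMM34, a cytosolic cochaperone that binds preproteins and is no subunit of the complex, had 98.3 CPM without glucose and 85.5 CPM with glucose (0.20).

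**Figure D2:**
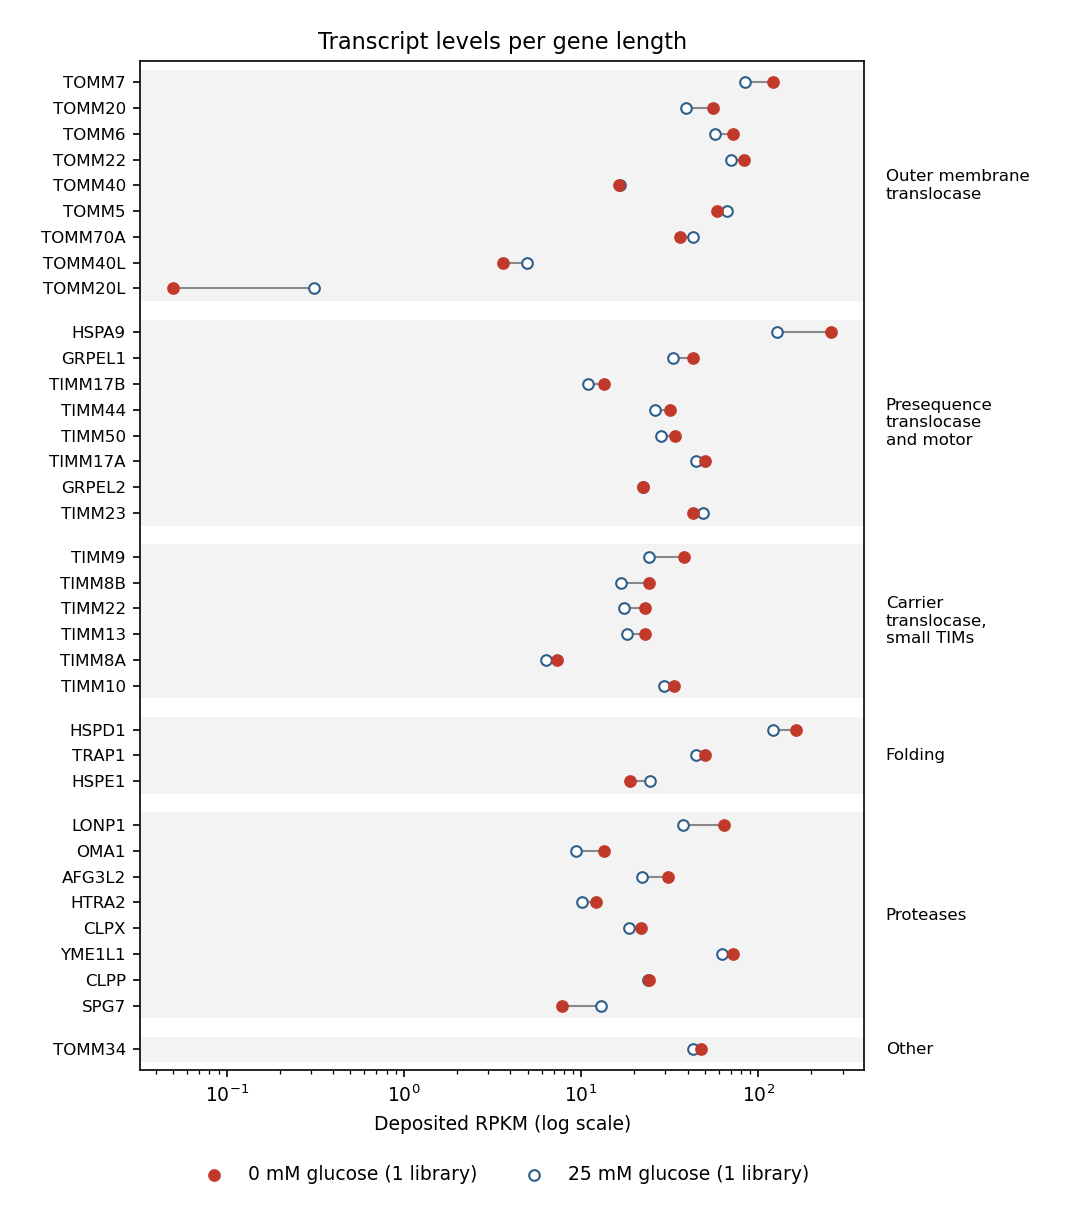
Deposited RPKM of the 35 members on a log axis, with 0 mM glucose as filled and 25 mM glucose as open circles, 1 library each, grouped by role (HSPA9 is drawn with the motor). HSPA9 reached 258 RPKM without glucose and 127 RPKM with glucose, the highest level in both libraries, and TOMM20L the lowest.

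Per gene length the order of the members was much the same in both libraries. Deposited RPKM values, which use the authors' own library totals, were highest for HSPA9 (258 without glucose and 127 with glucose), HSPD1 (164 and 122 in the same order) and TOMM7 (121 and 84.7). TOMM22 (83.1 and 70.1), TOMM6 (72.2 and 56.8) and YME1L1 (71.9 and 62.8) followed without glucose, while with glucose TOMM5 (58.5 without glucose and 66.9 with glucose) ranked above TOMM6. The pore gene TOMM40 stood well below its small partners, at 16.4 RPKM without glucose and 16.7 RPKM with glucose. The lowest measured members without glucose were TOMM40L (3.62 without glucose and 4.93 with glucose), TIMM8A (7.31 and 6.33) and SPG7 (7.85 and 13.03).

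In the presequence translocase and its motor, 6 of 8 intervals lay above 1-fold, 1 below and 1 spanned it, with a median log2 ratio of 0.33. The shares over all measured genes were 37.4% above and 36.5% below. The channel gene TIMM23 was the exception among the membrane subunits, with 1550 counts (50.4 CPM) without glucose and 1541 counts (55.3 CPM) with glucose (-0.13, interval -0.24 to -0.03). It is uncertain as a single gene, since a near-identical copy exists. TIMM17A, a channel subunit whose protein is degraded by YME1L1 under stress, had 84.0 CPM without glucose and 71.3 CPM with glucose (0.24). Its X-linked paralog TIMM17B had 14.9 CPM without glucose and 11.7 CPM with glucose (0.34), and the ratio of TIMM17A over that of TIMM17B was 0.929 (interval 0.794 to 1.09), so no difference between the paralogs was detectable at this depth. TIMM50, the receptor that takes presequences over from TOM, had 88.3 and 70.6 CPM, and TIMM44, which ties HSPA9 to the channel, 64.2 and 50.6 CPM, in both cases without glucose first (0.32 and 0.34).

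The nucleotide exchange factors of HSPA9 differed from each other. GRPEL1 had 1996 counts (64.9 CPM) without glucose and 1344 counts (48.3 CPM) with glucose (0.43, interval 0.33 to 0.53). GRPEL2, the second mammalian GrpE protein, had 2833 counts (92.1 CPM) without glucose and 2502 counts (89.8 CPM) with glucose (0.04, interval -0.04 to 0.11), and -0.02 with scaling by total counts. The ratio of GRPEL1 was 1.31 times that of GRPEL2 (1.2004 to 1.43). Per gene length, GRPEL1 stood at 1.93 times GRPEL2 without glucose and 1.47 times with glucose. HSPA9 itself had a ratio of 2.11-fold.

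In the carrier translocase and the small TIM chaperones all 6 intervals lay above 1-fold, against 37.4% above and 36.5% below over all measured genes. The median log2 ratio of the 6 was 0.42, with values from 0.24 to 0.71. TIMM9, which forms with TIMM10 the hexamer that carries hydrophobic proteins across the intermembrane space, had 1263 counts (41.1 CPM) without glucose and 699 counts (25.1 CPM) with glucose, 1.64-fold (1.49 to 1.80), so its interval just reached below 1.5-fold. Its partner TIMM10 had 22.8 CPM without glucose and 19.3 CPM with glucose (0.24). TIMM13 had 45.4 CPM without glucose and 34.4 CPM with glucose (0.40). It pairs with TIMM8A, the gene mutated in deafness-dystonia syndrome, which had 13.3 CPM without glucose and 11.1 CPM with glucose (0.26). The TIMM8A paralog TIMM8B had 27.9 CPM without glucose and 18.6 CPM with glucose (0.58), and the ratio of TIMM8A over that of TIMM8B was 0.800 (0.663 to 0.965). The TIMM8B model overlaps that of C11orf57 on the other strand by 336 bases. C11orf57 had 117 CPM without glucose and 68.5 CPM with glucose (0.77), and its part in the TIMM8B counts was not tested. TIMM22, the carrier channel, had 38.6 CPM without glucose and 28.4 CPM with glucose (0.44).

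**Figure D3:**
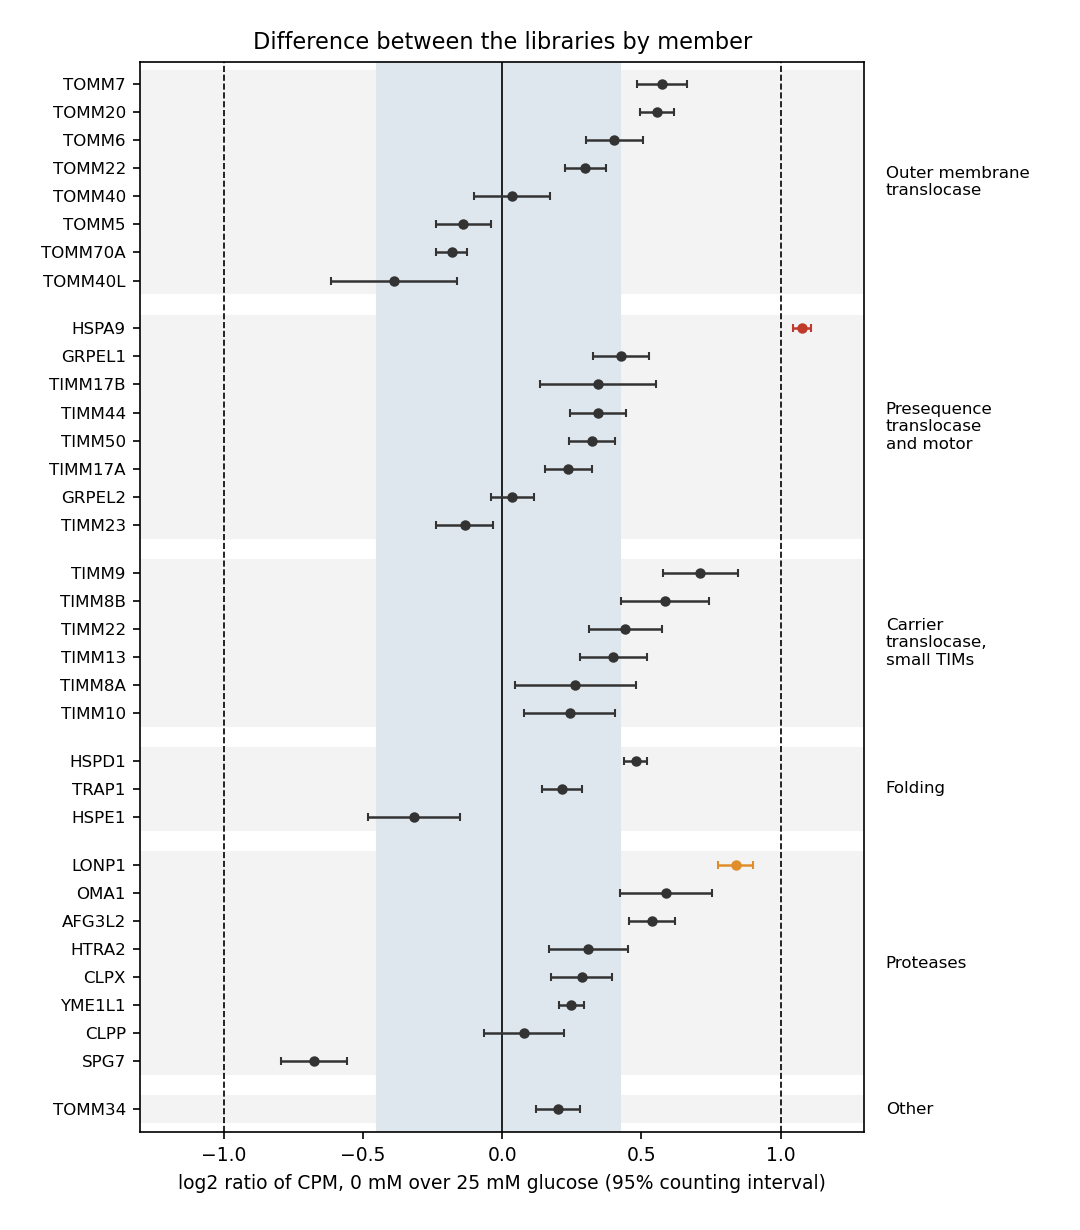
Log2 ratio of CPM, 0 mM over 25 mM glucose, of the 34 measured members by role, with exact 95% counting intervals. Dashed lines mark 2-fold either way and the blue band the quartiles of all measured genes (-0.45 to 0.42), and only HSPA9 (red, 1.08) lies wholly beyond a dashed line, with LONP1 (orange, 0.84) wholly beyond 1.5-fold.

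Among the proteases 6 of 8 intervals lay above 1-fold, 1 below and 1 spanned it, against 37.4% above and 36.5% below over all measured genes. The partners of 1 complex lay far apart. AFG3L2 and SPG7 (paraplegin) are the subunits of the m-AAA protease of the inner membrane. AFG3L2 can build the complex alone or together with SPG7. AFG3L2 had 3063 counts (99.6 CPM) without glucose and 1912 counts (68.7 CPM) with glucose (0.54, interval 0.45 to 0.62). SPG7 had 980 counts (31.9 CPM) without glucose and 1419 counts (50.9 CPM) with glucose (-0.68, interval -0.80 to -0.56), the lowest ratio of a measured member. The ratio of AFG3L2 was 2.32 times that of SPG7 (2.10 to 2.57). Per gene length there was 3.94 times as much AFG3L2 as SPG7 transcript without glucose and 1.70 times as much with glucose. All 18 exons of SPG7 and all 17 of AFG3L2 had more than 10 reads in both libraries.

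The i-AAA protease gene YME1L1 had 8942 counts (291 CPM) without glucose and 6817 counts (245 CPM) with glucose (0.25). OMA1, the stress-activated metalloprotease that cleaves OPA1 and DELE1, had 797 counts (25.9 CPM) without glucose and 480 counts (17.2 CPM) with glucose (0.59, interval 0.42 to 0.76). These proteases degrade each other and share OPA1 as a substrate, and the ratio of YME1L1 over that of OMA1 was 0.790 (0.701 to 0.890). CLPX, the unfoldase of ClpXP, had 51.5 CPM without glucose and 42.3 CPM with glucose (0.28), and the ratio of CLPP over that of CLPX was 0.867 (0.764 to 0.983). HTRA2, a serine protease of the intermembrane space, had 31.2 CPM without glucose and 25.2 CPM with glucose (0.31), and its model overlaps that of AUP1 on the other strand by 443 bases.

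**Figure D4:**
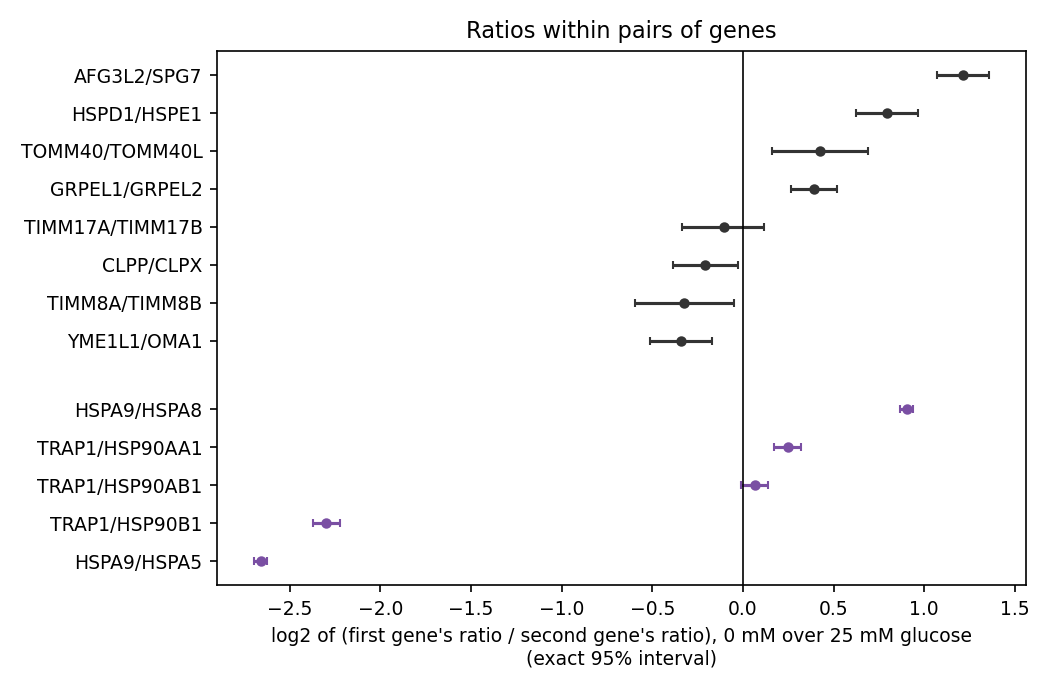
Log2 of the ratio of the first gene over the ratio of the second, each 0 mM over 25 mM glucose, with exact 95% intervals, for pairs within the set (upper block) and for mitochondrial chaperones against relatives in the ER and cytosol (lower block). AFG3L2/SPG7 has the highest value (2.32 as a ratio) and HSPA9/HSPA5 the lowest (0.158). TOMM20/TOMM20L is left out because TOMM20L has 6 counts in all.

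Against their relatives in other compartments, HSPA9 lay between the cytosolic and the ER form, and TRAP1 near the cytosolic forms. These comparison genes were chosen with their values known. HSPA5, the HSP70 of the ER, had 10092 CPM without glucose and 756 CPM with glucose, and the ratio of HSPA9 was 0.158 times that of HSPA5 (0.154 to 0.162). HSPA8, the constitutive cytosolic HSP70, had 1846 CPM without glucose and 1638 CPM with glucose, and HSPA9 exceeded its ratio 1.87-fold (1.83 to 1.92). TRAP1 differed from the ER HSP90 gene HSP90B1, which had 2992 CPM without glucose and 524 CPM with glucose, by a factor of 0.203 (0.193 to 0.215). Against the cytosolic HSP90AB1 the factor was 1.05 (0.994 to 1.10), and against HSP90AA1 1.19 (1.13 to 1.251). The 8 measured genes of the cytosolic chaperonin CCT, the counterpart of HSPD1, had a median log2 ratio of -0.09 and ran from -0.36 to 0.35, below the 0.48 of HSPD1.

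Other genes of import and quality control came from a list of 57 that the rule does not cover. Of 56 measured, 1 was called higher and 0 lower, against 3.75% and 6.20% of all measured genes. Their median log2 ratio was 0.32, and 30 intervals lay above 1-fold and 9 below, against 37.4% and 36.5% of all measured genes. The higher gene was DDIT3, the transcription factor CHOP, at 342 CPM without glucose and 18.6 CPM with glucose (log2 ratio 4.196). Without the 13 regulators 0 of 43 passed the bound, and the median was 0.32. Of these 43, 4 lay wholly above 1.5-fold and 0 wholly below, against 10.2% and 12.6% of all measured genes, so the share above was near that background. The 4 included CHCHD4, the oxidoreductase that traps the small TIMs by disulfide bonds (28.8 CPM without glucose and 16.3 CPM with glucose, 0.82), and OXA1L, the inner membrane insertase (197 and 114 CPM, 0.78). Also among them were DNAJA3, a J-protein of HSPA9 (96.4 and 60.5 CPM, 0.67, lower end of the interval 1.501-fold), and DNLZ, a zinc-finger partner that keeps HSPA9 soluble (3.81 and 1.72 CPM, 1.14, interval 0.65 to 1.66). The last rests on 117 and 48 counts.

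By role, the 9 genes of the intermembrane space relay and outer membrane assembly had a median log2 ratio of 0.44 and the 14 measured scaffolds and further quality control genes 0.34. The 12 partners of the motor and translocases had 0.26 and the 8 processing peptidases 0.14. Of these peptidases, the presequence-cleaving subunits PMPCB (43.0 CPM without glucose and 30.4 CPM with glucose, 0.50) and PMPCA (54.7 and 57.4 CPM, -0.07) had differing ratios, and IMMP1L, an inner membrane peptidase, had the lowest (2.24 and 4.38 CPM, -0.96, interval -1.41 to -0.53). Members by their present names that the tables list under older symbols, and that the rule therefore left out, were C18orf55 (TIMM21, -0.30), FXC1 (TIMM10B, -0.08) and C19orf52 (TIMM29, 0.02), each below the members' median of 0.30.

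The 13 regulators had a median of 0.29, with ABCB10, an ATP-binding cassette transporter of the inner membrane, lowest at 7.35 CPM without glucose and 16.7 CPM with glucose (-1.18, interval -1.42 to -0.95). ATF5, linked to the mitochondrial unfolded protein response, had 88 counts without glucose and 65 with glucose, and its interval of 0.880 to 1.72-fold spanned 1-fold. In the relay by which OMA1 cleaves DELE1 to activate the eIF2 kinase HRI, KIAA0141 (DELE1) had 54.7 CPM without glucose and 39.5 CPM with glucose (0.47), and EIF2AK1 (HRI) had 271 and 339 CPM in the same order (-0.32). PINK1, the kinase that accumulates on TOM when import fails, had 106 CPM without glucose and 83.1 CPM with glucose (0.35).

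Read coverage over exons was similar in both libraries. Of the 303 exons in the gene models of all members, 281 had more than 10 reads without glucose and 283 with glucose, and 30 of the 34 measured members had the same number in both. As a check of the cells, the renal factor PAX8 had 232 CPM without glucose and 244 CPM with glucose and KRT8 118 and 134 CPM. Among the other renal markers, EPAS1 was higher (422 CPM without glucose and 134 CPM with glucose). CDH6 was lower (8.36 CPM without glucose and 192 CPM with glucose), as were LHX1 (3.38 and 19.5 CPM in the same order) and CA12 (16.1 and 38.6 CPM). Of 3 leukocyte markers 1 was measured (CD14, 9 counts without glucose and 12 with glucose), of 3 endothelial and 2 erythroid markers 0, while 3 of 3 fibroblast markers were, with 5.89 CPM in sum without glucose and 8.33 CPM with glucose.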

How the data were processed

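The authors deposited 1 table per library with raw counts per gene model on hg19, per the submitters' processing notes and the file headers. RPKM values were deposited beside them, per the file headers, as counts per length and library total. They were used only to compare levels between genes. Not given in the sources used here are the library preparation, the aligner, the counter and whether strand was used.

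Of 24364 rows, 528 repeats of another symbol's place and counts were removed, and the rest were added up per symbol. TMM effective library sizes (edgeR 4.0.16, R 4.3.3; factors 0.981 without glucose and 1.02 with glucose) were computed on genes with at least 20 counts over both libraries. Ratios had exact Clopper-Pearson intervals, and pairs of genes conditional odds ratios with exact intervals (Python 3.11.15, scipy 1.17.1). The ratio intervals and calls, not the pair comparison, were tested on simulated data. These were independent counts, as the intervals assume, so this checked the computation only and not PCR copies or differences between cultures. With 1 library per group there was no test, and the rule of size took its place. Depth limits precision: log2 intervals of the members had half-widths of 0.03 to 0.23.

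Members and lists were chosen with earlier results of these data known. Named in full were members with an interval wholly beyond 1.5-fold, those with the highest levels per length, fixed pairs, members near 0 and, of the other genes, those past the 2-fold bound and up to 4 more by size of ratio. Further genes were named for their role after their values were seen. TIMM23B, a listed pair partner, was not analysed here. Promoter windows are from RefSeq (GRCh38.p14), so their coordinates differ in build from those of the gene models. Alternatives were DESeq2 1.42.0 size factors, total counts, upper quartiles, other count minimums and bounds, and small RNA genes left out. A renal marker of the list is not reported here.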

Additional observations from a re-analysis of the deposited data

How the results depend on the processing

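No paired analysis was possible because there was a single library on each side, which also meant that leaving out a replicate could not be tried. The count of members past the bound stayed at 1 (HSPA9) with DESeq2 size factors, upper-quartile scaling, both other count minimums, small RNA genes left out and the ratio itself in place of its interval. It was 0 with scaling by total counts, 2 with a bound of 1.5-fold and 31 with a bound of 1-fold, which was chosen after seeing the data. For all genes the count was 1417, and 3251 and 10527 with these bounds or 2560 with the ratio itself beyond 2-fold. For the other import and quality-control genes it was 1, and 6, 39 and 3 in the same order, and 2 with scaling by total counts, where ABCB10 also fell below the bound. The causes were not tested beyond the construction of these bounds. The members' median log2 ratio ran from 0.25 (total counts) to 0.34 (upper quartiles), was 0.28 over the 17 members without a named pseudogene or near-identical copy, and 0.30 with 1 CPM added. The scalings moved the median of all genes by -0.06 to 0.04. Adding 0.5 counts to each cell left every pair's log2 value inside its interval. Under other scalings 132 single-gene values stayed within the gene's counting interval and 4 did not, of HSPA9, HSPD1 and YME1L1. Signs turned for GRPEL2 and TOMM40 with total counts (-0.02 each). Membership beyond 1.5-fold also depended on the scaling. With total counts the interval of SPG7 lay wholly below it, with an upper end of 0.653. That of TIMM9 lay wholly above it with upper quartiles (lower end 1.53) and with small RNA genes left out (1.51).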

Other observations

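Several members start beside a gene of the other strand. Of the 34 measured members 9 (26.5%) had such a start within 1000 bases, against 16.1% of all measured genes. Among the 9, HSPD1 and HSPE1 count as each other's neighbour. LONP1 counts through TMEM146, which had 4 counts without glucose and 0 with glucose. TIMM8B and SDHD, a subunit of respiratory complex II, start 49 bases apart, and had log2 ratios of 0.58 and -0.11. YME1L1 starts 432 bases from MASTL, a kinase of mitotic entry, which was lower without glucose at 34.7 CPM against 81.5 CPM with glucose (-1.23), while YME1L1 stood at 0.25. TIMM9 (0.71) starts 478 bases from KIAA0586, a ciliary gene (0.10). TOMM70A (-0.18) starts 188 bases from LNP1 (-0.76), and TIMM17B (0.34) 231 bases from PQBP1 (0.53). HTRA2 (0.31) starts 442 bases from AUP1, an ER and lipid droplet protein, which had 166 CPM without glucose and 82.1 CPM with glucose (1.019), not past the bound by its interval. These pairs were noticed after their values were seen and were not tested. For 11 of the 35 members a gene model on the other strand overlaps, and nothing in the labels says if counting used strand, so reads of such partners cannot be told apart where they overlap.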
